A study of Mus musculus with 2 samples.

Results

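The genes examined here present antigen on major histocompatibility complex (MHC) molecules. There were 10 of them among the 27998 genes of the deposited table, chosen by symbol: the class I chains H2-K1 and H2-D1 with their light chain B2m, the peptide transporter subunit Tap1 and the immunoproteasome subunit Psmb8, the class II chains H2-Aa, H2-Ab1 and H2-Eb1 with their invariant chain Cd74, and Ciita, the transactivator of the class II genes. They were read in single-cell RNA-seq of the mammary gland of adult FVB/NJ mice that received no treatment, in which a unique molecular identifier (UMI) counted each captured transcript from its 3′ end. The labels gave 8 mice for the series, whose cells formed 1 library of total epithelium (3302 cells) and 1 library of sorted basal cells (4771 cells), so that animals were pooled within each library. The study's sort set aside cells stained for CD31, CD45 or TER-119, and with them most endothelial, leukocyte and erythroid cells.

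Class I molecules display peptides from inside the cell to CD8+ T cells, and nearly every nucleated cell makes them. The peptides are cut by the proteasome, whose catalytic subunits can be exchanged for the interferon-inducible Psmb8, Psmb9 and Psmb10, and are carried into the endoplasmic reticulum by the Tap1 and Tap2 pair. Class II molecules display peptides from endosomes to CD4+ T cells and are made mainly by dendritic cells, macrophages and B cells, although epithelia can make them under interferon gamma through Ciita.

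The cells of the total epithelium were split by genes outside the set. Basal cells, the contractile outer layer, had 10 or more UMIs of Krt5, Krt14 and Acta2 together (1280 cells). Mature luminal (ML) cells, which line the duct and carry hormone receptors, had 10 or more of Prlr, Stc2 and Gpx3 (1133 cells). Luminal progenitor (LP) cells were the other cells with 3 or more UMIs of Krt8, Krt18 and Krt19 (766 cells). A further 26 cells met both the basal and the ML rule and 97 met none, and both were kept apart. The classes are ranges of a score: 37 cells lay within 2 UMIs of the basal threshold, 109 of the ML threshold and 49 of the LP threshold. The median basal cell held 55 UMIs of the basal genes, 0 of the ML genes and 3 of the luminal keratins. The median LP cell held 0, 0 and 59, and the median ML cell 0, 42 and 107.

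Independent markers followed the labels. All 10 basal markers were at least 2-fold lower in LP and in ML than in basal cells, all 10 LP markers were lower in ML than in LP, and all 10 ML markers were higher in ML than in either other class. The median cell held 1820 UMIs in the basal class, 2483.5 in LP, 3403 in ML and 487 in the sorted basal library. The libraries shared 28 cell barcodes. Levels below are CPM, the UMIs of a gene summed over a class and scaled to 1000000 UMIs of that class, with an exact 95% Poisson interval. Ratios of CPM carry an exact conditional binomial interval. With 1 library per group no test was possible, and the intervals cover counting error only and not the spread between mice.

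Promoters of 7 of the 10 genes were searched, taken from RefSeq (GRCm38.p6, the C57BL/6J genome): H2-K1, H2-D1, B2m, H2-Aa, H2-Eb1, Tap1 and Psmb8. H2-Ab1 and Ciita had no entry, and Cd74 was left out of the search. Those of H2-K1 and B2m are printed because these chains form 1 molecule and were both highest in ML cells, and that of H2-Aa because most of its UMIs were in basal cells. Each stretch ends at the base before the annotated start, is written 5′ to 3′ on the gene's strand, and has matches to the searched motifs in capitals.
H2-K1, chr17:34000348-34000597, minus strand: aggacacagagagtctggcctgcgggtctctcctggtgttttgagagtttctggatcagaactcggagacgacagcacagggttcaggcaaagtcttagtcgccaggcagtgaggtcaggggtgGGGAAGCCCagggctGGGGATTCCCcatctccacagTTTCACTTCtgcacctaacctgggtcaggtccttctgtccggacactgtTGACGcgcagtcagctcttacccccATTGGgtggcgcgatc
B2m, chr2:122147437-122147685, plus strand: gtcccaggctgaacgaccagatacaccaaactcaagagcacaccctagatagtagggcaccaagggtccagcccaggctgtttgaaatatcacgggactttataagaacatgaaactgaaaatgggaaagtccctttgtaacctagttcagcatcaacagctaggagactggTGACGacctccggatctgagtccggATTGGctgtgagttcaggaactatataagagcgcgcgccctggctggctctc
H2-Aa, chr17:34287824-34288073, minus strand: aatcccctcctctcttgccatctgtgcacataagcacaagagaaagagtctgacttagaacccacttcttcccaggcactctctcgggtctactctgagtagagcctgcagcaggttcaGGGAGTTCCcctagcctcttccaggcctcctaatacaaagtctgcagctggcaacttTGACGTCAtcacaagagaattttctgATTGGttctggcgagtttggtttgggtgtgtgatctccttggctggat

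The motifs were searched on both strands in the 250 bases before the RefSeq start, of which 249 are printed for B2m because the last lies in an annotated exon. The letters CCAAT, the Y box of MHC promoters, were found before 6 of the 7 genes, all but Psmb8, and before 34.5% of 27018 promoters. The letters TGACG, part of the site of cAMP response element binding factors and of the X box, were found before 5 genes (H2-K1, H2-D1, B2m, Tap1 and H2-Aa) and before 17.8% of promoters. An NF-kB-like string, GGGNNTNCC with N for any base, was found before 4 (H2-K1, H2-D1, Tap1 and H2-Aa) and before 13.8% of promoters. GAANNGAAA, a string resembling part of the interferon-stimulated response element, was found before H2-K1 and H2-D1 and before 6.35% of promoters. The gamma-activated site string TTCNNNGAA was found before Psmb8 and before 7.14% of promoters. Several matches overlap: the NF-kB run of H2-K1 holds 3 of its 4 matches, and the TGACG of H2-Aa lies in a palindrome matched on both strands. The windows of H2-K1 and H2-D1 share a run of 47 bases and were identical at 166 of 190 bases (87.4%) when laid over each other without gaps. The H2-D1, Tap1, Psmb8 and H2-Eb1 windows overlap annotated exons and are not printed. These are matches of letters in the reference, not sites shown to be used. Longer or differently spaced forms of the elements were not searched. The B2m stretch, for example, holds gaaactgaaa and gggaaagtccc, which the interferon and NF-kB-like strings do not match. A stretch without a match is therefore not shown to lack the element.

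ML cells held the most class I RNA. H2-D1 was counted at 2840 CPM in basal cells (2776 to 2904), 2637 in LP cells (2569 to 2706) and 6766 in ML cells (6687 to 6846). ML cells thus stood 2.38-fold above basal cells (interval 2.32 to 2.44) and 2.57-fold above LP cells (2.49 to 2.64). H2-K1 was at 904 CPM in basal cells (868 to 940), 1054 in LP cells (1012 to 1099) and 1601 in ML cells (1563 to 1640). Its ML level was 1.77-fold the basal level (1.69 to 1.86) and 1.52-fold the LP level (1.45 to 1.59), under the 2-fold mark used here. B2m, the light chain that every classical class I molecule needs, was at 467 CPM in basal cells (442 to 494), 562 in LP cells (531 to 594) and 1198 in ML cells (1165 to 1232). That put ML cells 2.56-fold above basal cells (2.41 to 2.73) and 2.13-fold above LP cells (2.0 to 2.27). For all 3 genes ML was the highest class, and LP and basal cells were close to each other.

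Between LP and basal cells the order of the class I genes depended on the class thresholds. H2-K1 was 1.17-fold (1.10 to 1.24) and B2m 1.2-fold (1.11 to 1.30) as high in LP as in basal cells. H2-D1 had a ratio of 0.93 (0.90 to 0.96). With the thresholds of the classes set at 20, 20 and 10 UMIs all 3 were higher in LP cells, at 1.34-fold for H2-K1, 1.28-fold for H2-D1 and 1.55-fold for B2m. With the thresholds applied to scaled UMIs the ratios were 1.23, 1.04 and 1.32. Summed, the 3 genes were at 4253 CPM in LP and 4210 CPM in basal cells, a ratio of 1.01 (0.98 to 1.04).

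**Figure D1:**
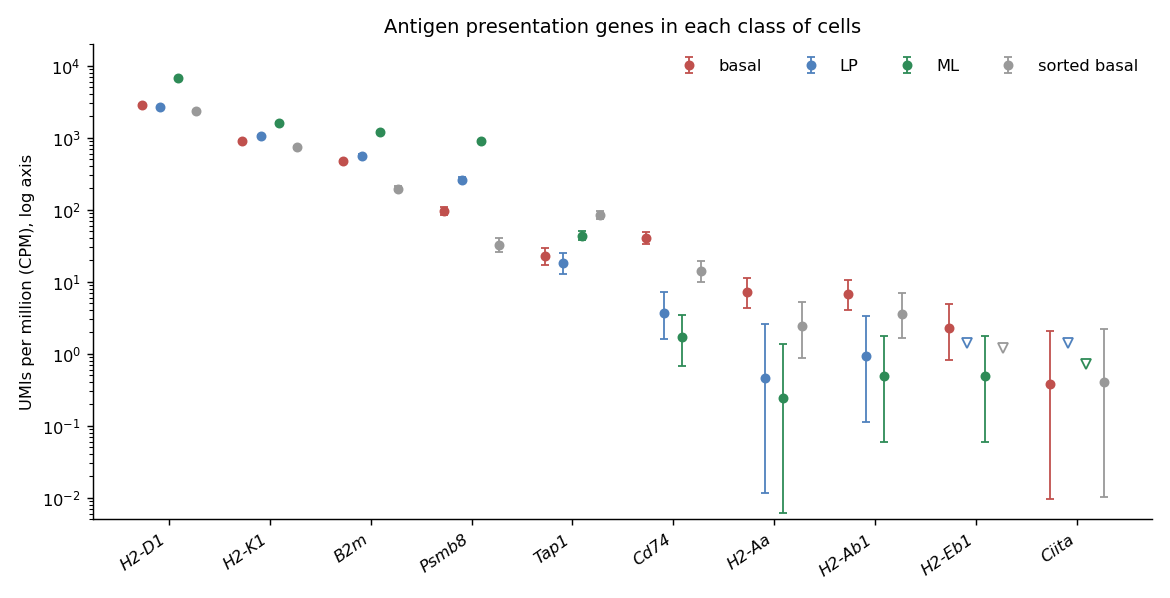
CPM (log axis) of the 10 antigen presentation genes in basal, LP and ML cells of the total epithelium and in the sorted basal library. Bars are exact 95% Poisson intervals and open triangles mark the level of 3 counts where none was seen. H2-D1, H2-K1, B2m and Psmb8 were highest in ML cells, Tap1 was highest in the sorted library, and Cd74 was highest in basal cells at 41.1 CPM.

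Among the 5 class I members Psmb8 had the largest ratios between classes. It supplies the chymotrypsin-like catalytic subunit of the immunoproteasome, in place of Psmb5 of the ordinary one. Its level was 96.2 CPM in basal cells (84.7 to 109), 261 in LP cells (240 to 284) and 897 in ML cells (869 to 927). No interval met another. ML cells stood 9.33-fold above basal cells (8.22 to 10.6) and 3.43-fold above LP cells (3.14 to 3.76), and LP cells 2.72-fold above basal cells (2.34 to 3.16).

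More ML cells also carried it. Psmb8 had a UMI in 15.5% of basal (13.6 to 17.6, exact binomial), 41.3% of LP (37.7 to 44.8) and 87.5% of ML cells (85.4 to 89.3). With every cell thinned to 800 UMIs, which no cell of this library fell under, the shares were 6.44%, 17.1% and 48.8%. The order was the same with and without thinning.

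Tap1 was sparse. It had 60 UMIs in basal cells (22.6 CPM, 17.3 to 29.1), 39 in LP cells (18.1 CPM, 12.8 to 24.7) and 180 in ML cells (43.6 CPM, 37.4 to 50.4). ML cells were 2.41-fold above LP cells (1.70 to 3.50) and 1.92-fold above basal cells (1.43 to 2.62). The LP and basal intervals overlapped, with a ratio of 0.80 (0.52 to 1.21).

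Counted as past 2-fold, among genes with at least 30 UMIs over the classes compared, 3 of 6 members were higher in ML than in basal cells (H2-D1, B2m and Psmb8), against 19.3% of the 9521 genes compared. One of the 6, Cd74, was lower, against 19.1%. Against LP cells, 4 of 5 were higher in ML (H2-D1, B2m, Tap1 and Psmb8), against 17.0% of 8950 genes, and 0 were lower, against 9.75%. With the thresholds at 20, 20 and 10 UMIs, which sends cells of few ML transcripts to the LP class, 2 of 5 stayed past 2-fold (Tap1 and Psmb8). At these thresholds 9.44% of all genes compared were past 2-fold higher in ML than in LP cells. Between LP and basal cells 1 of 6 was higher in LP (Psmb8, against 11.6% of 8653 genes) and 1 was lower (Cd74, against 21.1%). The median member ratio of ML to LP was 2.41, where all genes had a median of 1.22. For ML to basal the medians were 2.15 and 1.04, and for LP to basal 1.05 and 0.86.

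Transcripts of one class can reach the droplets of another as free RNA. The level of the 10 ML markers in basal cells was a median of 3.77% of that in ML cells, and in LP cells 12.6%, which includes cells just under the ML threshold. H2-K1, H2-D1, B2m and Tap1 in basal cells were at 39.0% to 56.4% of their ML level and in LP cells at 39.0% to 65.8%. Psmb8 was at 10.7% in basal and 29.1% in LP cells. The part of free RNA in these levels was not tested. The FVB/NJ strain carries another MHC haplotype than the reference genome, and the H2 chains are polymorphic and near-identical to one another, so reads may have been lost or split between chains. The size of this was not tested in any class.

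Class I RNA varied among cells of a class, and the classes overlapped, though few basal or LP cells exceeded the ML median. Over the 3 class I genes, the median ML cell held 92.5 UMIs per 10000, with the 10th and 90th percentiles at 51.8 and 156. The median basal cell held 38.3 (14.9 and 72.6) and the median LP cell 35.6 (14.8 and 85.5). Of 1280 basal cells 53 (4.14%) exceeded the ML median, as did 67 of 766 LP cells (8.75%). A single ML cell of 1133 had no class I UMI, against 13 basal and 10 LP cells, and 1083 ML cells (95.6%) had 10 or more.

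**Figure D2:**
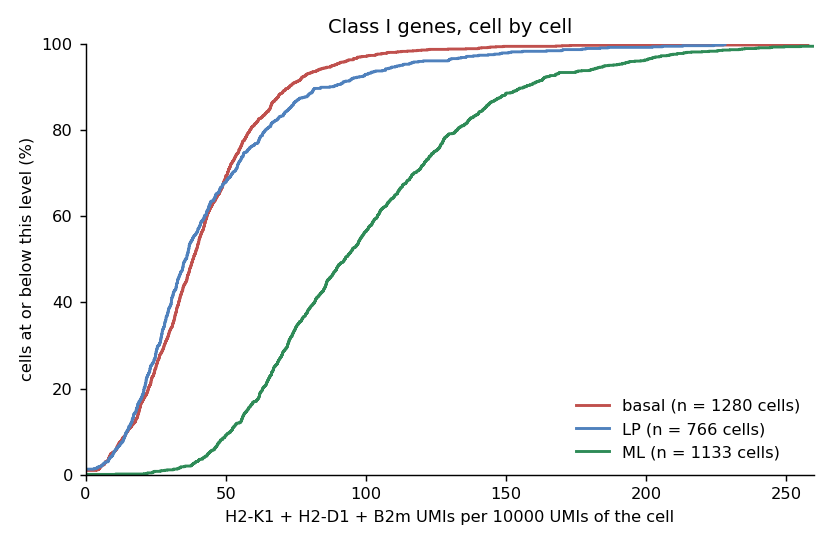
Share of cells (%) at or below each level of H2-K1, H2-D1 and B2m together, per 10000 UMIs of the cell, for 1280 basal, 766 LP and 1133 ML cells. The basal and LP curves lie close around their medians of 38.3 and 35.6, and their order is reversed at the 90th percentiles of 72.6 and 85.5. The ML curve lies to the right with a median of 92.5. The horizontal axis ends at 260.

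Within LP cells the genes most like the class I sum, by Pearson's r on log2(UMIs per 10000 + 1), included the ML markers Ptn and Cited1. The closest were Ptn (r = 0.38), a secreted growth factor, Wfdc2 (0.38), Cited1 (0.36), a cofactor of the estrogen receptor, Cdo1 (0.35) and Cd9 (0.35). The ranking was over 766 cells and 4803 genes with a UMI in at least 5% of those cells. The LP class includes cells just under the ML threshold, and their part in these values was not tested. Within ML cells the closest were Cd9 (0.24), Ptn (0.22), Malat1 (0.22), Wfdc2 (0.21) and Stc2 (0.19), over 1133 cells. Within basal cells they were Sfn, Slpi, Krt14, Krt17 and Apoe, at 0.15 to 0.20 over 1280 cells. All cells share a library, each level is divided by the same cell's total, and such values in sparse counts are a description. H2-K1 and H2-D1 themselves had r = 0.36 in ML, 0.27 in LP and 0.12 in basal cells.

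Cells that joined ML and LP genes lay between the classes. Among ML cells 113 had 10 or more UMIs of the LP genes Csn3, Cd14, Lalba, Wfdc18 and Elf5, a split made after values were seen. Their H2-D1 was at 4644 CPM (4479 to 4814), between 2637 in LP cells and 7159 (7071 to 7249) in the other 1020 ML cells. Psmb8 was at 596 CPM (538 to 659) in them and at 953 (921 to 986) in the other ML cells. H2-K1 at 1303 CPM (1216 to 1394) and B2m at 788 (721 to 860) also lay between. Tap1, with 13 UMIs, was at 20.1 CPM (10.7 to 34.4), which overlapped the LP interval. These cells held a median of 5609 UMIs, more than the 3239 of the other ML cells, and whether they include droplets with 2 cells was not tested.

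**Figure D3:**
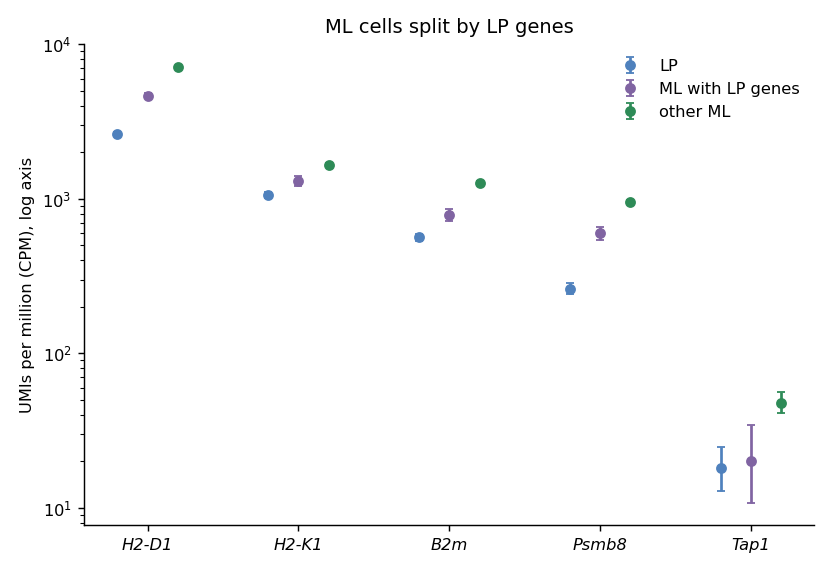
CPM (log axis) of 5 class I pathway genes in LP cells, in the 113 ML cells with LP genes and in the other 1020 ML cells, with exact 95% Poisson intervals. H2-D1, H2-K1, B2m and Psmb8 step upward across the 3 sets, while for Tap1 the first 2 sets overlap.

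The class II members were scarce in every class, and basal cells held most of their UMIs. LP and ML cells could not be ordered, with a ratio of ML to LP of 0.57 (0.23 to 1.43) over H2-Aa, H2-Ab1, H2-Eb1 and Cd74 together. Cd74, the chaperone that fills the class II groove until peptide is loaded, had 109 UMIs in basal cells (41.1 CPM, 33.8 to 49.6), 8 in LP cells (3.71 CPM, 1.6 to 7.30) and 7 in ML cells (1.69 CPM, 0.68 to 3.49). Basal cells were 24.3-fold above ML cells (11.4 to 61.8) and 11.1-fold above LP cells (5.43 to 26.3). Cd74 had a UMI in 5.0% of basal (3.87 to 6.34), 0.783% of LP (0.288 to 1.70) and 0.618% of ML cells (0.249 to 1.27), although basal cells were the shallowest class. Thinned to 800 UMIs the shares were 2.40%, 0.300% and 0.125%.

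The class II chains had too few UMIs to be compared by the 30-UMI rule, and their values are given with wide intervals. H2-Aa, the alpha chain of the A molecule, had 19 UMIs in basal cells, 1 in LP cells and 1 in ML cells, a basal to ML ratio of 29.6 (4.71 to 1230). H2-Ab1, its beta chain, had 18, 2 and 2 UMIs, a basal to ML ratio of 14.0 (3.36 to 125). H2-Eb1, a beta chain of the E molecule, had 6 UMIs in basal cells, 0 in LP cells and 2 in ML cells. Its basal level could not be told from that in LP cells, where the lower bound of the basal to LP ratio was 0.958. It was 4.68-fold that in ML cells (0.84 to 47.4), an interval that also includes 1. Ciita had a single UMI, in a basal cell that also had a UMI of a class II chain or Cd74. It had 0 in 766 LP and 1133 ML cells, which allows a share of up to 0.392% of LP and 0.265% of ML cells with a UMI. It was not detectable at this depth in the luminal classes.

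Few cells carried class II RNA, and among these a handful held much of it. At least 1 UMI of H2-Aa, H2-Ab1, H2-Eb1 or Cd74 was found in 80 of 1280 basal cells (6.25%, 4.99 to 7.72), 9 of 766 LP cells (1.17%, 0.539 to 2.22) and 10 of 1133 ML cells (0.883%, 0.424 to 1.62). Thinned to 800 UMIs these shares were 3.19%, 0.409% and 0.195%. In the basal class 10 cells had 3 or more and together held 69 of the 152 class II UMIs. The highest had 27: 21 of Cd74, 3 of H2-Aa and 3 of H2-Ab1, among 1841 UMIs in all. Next came a cell with 7 of Cd74, 1 of H2-Aa and 1 of H2-Ab1. Of the 10, 8 carried H2-Aa, 5 H2-Ab1, 1 H2-Eb1 and all 10 Cd74.

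**Figure D4:**
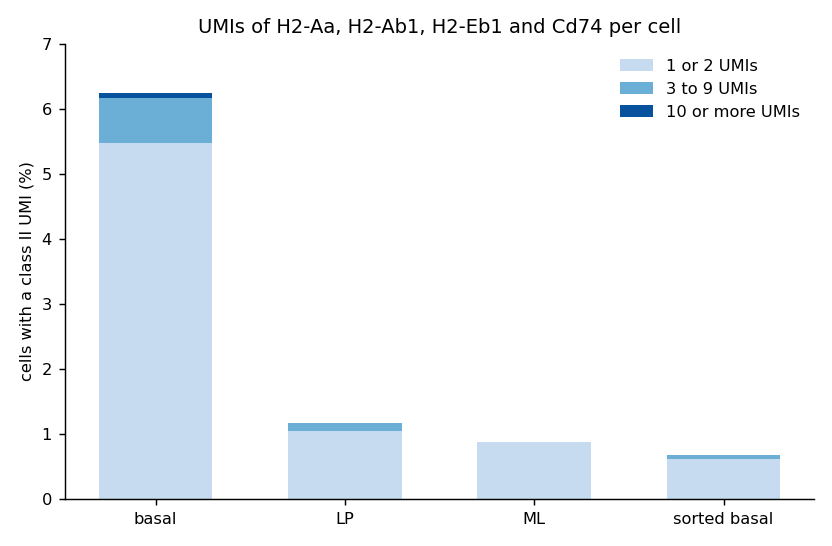
Share of cells (%) with 1 or 2, 3 to 9, and 10 or more UMIs of H2-Aa, H2-Ab1, H2-Eb1 and Cd74 together, in basal, LP and ML cells of the total epithelium and in the sorted basal library, without thinning. The basal bar reaches 6.25% and the others 1.17%, 0.883% and 0.671%, and the single cell with 10 or more is basal.

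Leukocyte markers were nearly absent from these cells. Of 20 listed markers 19 had a row in the table, and 14 of them were at 0 in basal cells, 16 in LP cells and 15 in ML cells, among them Ptprc, which encodes CD45, and Itgax. The summed level of the list was 12.8 CPM in basal cells, 7.88 in LP cells and 3.39 in ML cells, mostly Cd68, a lysosomal protein gene, and Lyz2. Among the 80 basal cells with a class II UMI, 2 had an immune marker UMI (2.50%), 1 of Cd79a and 1 of Lyz2, against 31 of the 1200 other basal cells (2.58%). The 10 cells with 3 or more class II UMIs had 0. Ctss, a cathepsin of professional presenting cells outside this list, had a UMI in 2 of these 10 cells. It had 0 in the 1200 basal cells without a class II UMI. Leaving out all cells with an immune marker UMI took out only 2 of the 80, so the Cd74 ratio could hardly change. Cd74 in ML cells was 0.0409 of its basal level without such cells and 0.0412 with them. The part of leukocyte RNA in the class II counts was not tested. Fibroblast markers were found in more of the cells with class II RNA, in 29 of 80 (36.25%) and in 4 of the 10 with 3 or more class II UMIs, against 310 of the 1200 other basal cells (25.8%). The 80 cells were also deeper, with a median of 2057.5 UMIs against 1798. The part of fibroblast RNA and of depth in the class II counts was not tested.

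The wider class I pathway was higher in ML cells at some steps and not at others. Of 17 class I chains listed, H2-K1, H2-D1 and B2m among them, 12 were compared between ML and basal cells, and 8 were past 2-fold higher and 0 lower, against 19.3% and 19.1% of all genes compared. Their median ratio was 2.47, where that of all genes was 1.04. H2-Q2, a nonclassical chain, was at 74.8 CPM in ML and 2.64 in basal cells (28.3-fold, 13.6 to 71.0), H2-Q7 6.13-fold and Mr1, which presents vitamin B metabolites, 3.29-fold higher. The Q genes are near-identical copies, and how their reads were split is uncertain. Against LP cells 4 of 12 chains were higher and 0 lower (17.0% and 9.75% of all genes), led by H2-M3 (4.25-fold), H2-Q7 (3.46-fold) and H2-D1.

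All 5 genes of the immunoproteasome and its activator were past 2-fold higher in ML than in basal cells, against 19.3% of all genes, with a median ratio of 2.79. Psmb9, which lies beside Tap1, was at 14.0 CPM in basal cells, 46.8 in LP cells and 168 in ML cells, 12.0-fold above basal (8.63 to 17.2) and 3.58-fold above LP (2.90 to 4.46). Psmb10 was 2.79-fold, Psme1 2.64-fold and Psme2 2.48-fold above basal cells. Of the ordinary subunits that they replace, Psmb5, Psmb6 and Psmb7, 0 of 3 passed 2-fold, with ML to basal ratios of 1.82, 1.21 and 1.57. Against LP cells 3 of 5 passed (Psmb8, Psmb9 and Psme2), and 0 of the 3 ordinary subunits, where 17.0% of all genes passed. The ordinary subunits had a median ML to LP ratio of 1.32, and all genes 1.22.

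Of 8 peptide loading genes 1 passed 2-fold in ML over basal cells, a share under the 19.3% of all genes. Tap2, the partner of Tap1, was at 88.2 CPM in basal cells, 188 in LP cells and 576 in ML cells, 6.53-fold above basal (5.71 to 7.5) and 3.06-fold above LP (2.76 to 3.41). Tapbp, which tethers class I to the transporter, had an ML to basal ratio of 1.5, and the general chaperones Calr and Canx had ratios of 0.95 and 0.90. The median over the list was 1.27.

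The class II list split by gene. Cd74 was lower in ML cells, while the peptide exchange factors H2-DMa and H2-DMb1 were higher. H2-DMa was at 3.77 CPM in basal cells, 3.71 in LP cells and 31.9 in ML cells, 8.47-fold above basal (4.46 to 18.1). H2-DMb1 was at 33.6, 65.3 and 119 CPM, 3.54-fold above basal (2.82 to 4.49). Of 10 listed genes 4 could be compared, and 3 were higher in ML (the third was H2-DMb2) and 1 was lower, against 19.3% and 19.1% of all genes. Ctsl, a cathepsin that trims the invariant chain, was at 2232 CPM in basal cells, 783 in LP cells and 364 in ML cells, 6.13-fold higher in basal than in ML. Ctss, the cathepsin that does this in professional presenting cells, had 2 UMIs in basal and 0 in LP and ML cells. Both were in the 10 basal cells with 3 or more class II UMIs, in 2 of these cells. Of 6 costimulatory genes 0 reached 30 UMIs in any comparison, with Cd80 and Cd86 at 0 in every class.

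Listed genes of the interferon pathway passed 2-fold in either direction, in shares of which some were close to those of all genes. In interferon gamma signalling, Irf8, a transcription factor, was 3.67-fold higher in ML than in basal cells (1.92 to 7.73). Of the 10 genes listed, 2 were past 2-fold higher in ML cells, near the 19.3% of all genes. Another 2 were past 2-fold higher in basal cells (Socs1, 5.96-fold, and Irf1, 3.96-fold), near the 19.1% of all genes. Irf1, a transcription factor known to switch on Tap1 and Psmb9, was at 262 CPM in basal cells, 54.2 in LP cells and 66.3 in ML cells. Of 15 interferon-induced genes compared, 5 were higher in ML and 3 in basal cells, against 19.3% and 19.1% of all genes, so that the share higher in basal cells was near that of the whole table. The median ratio was 0.87. Iigp1, a GTPase of the immunity-related family, was at 6.41 CPM in basal cells, 63.5 in LP cells and 408 in ML cells, 63.7-fold above basal (39.7 to 110). Its basal level was 1.57% of the ML level, under the 3.77% of the ML markers. Bst2 was 19.1-fold higher in ML cells, whereas Ifitm3 was at 1774 CPM in basal and 337 in ML cells, 5.27-fold higher in basal. Nlrc5, the class I counterpart of Ciita, had 3 UMIs in basal cells, 2 in LP cells and 7 in ML cells, too few to compare.

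**Figure D5:**
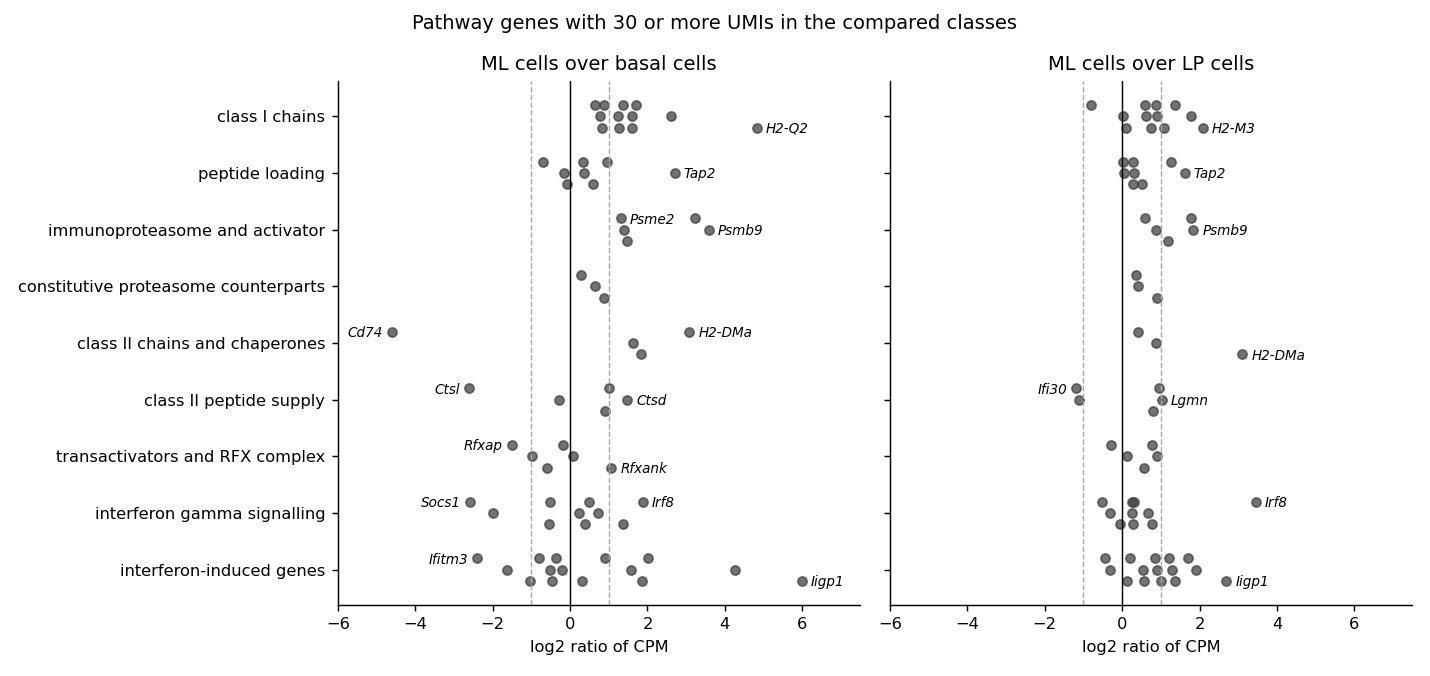
Log2 ratios of CPM of ML over basal cells (left) and ML over LP cells (right) for listed pathway genes with 30 or more UMIs in the compared classes. Points are genes, dashed lines mark 2-fold, and the outermost genes past 2-fold are named. The immunoproteasome genes lie right of 2-fold against basal cells, with Psmb9 at 12.0-fold, and Cd74 and Ctsl lie left of it.

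Transcripts of listed fibroblast markers were counted in the ML class. Fibroblast markers summed to 1521 CPM in ML, 372 in basal and 115 in LP cells, and 5293 of the 6285 UMIs in ML cells were Dcn. Whether these UMIs came from ML cells, stromal cells or free RNA was not tested. There were 12 ML cells with 3 or more UMIs of Col1a1, Col1a2 and Col3a1. Their Psmb8 level was 296 CPM (148 to 530), under that of the class. Without such cells the ML to basal ratios were 9.38 for Psmb8, 2.39 for H2-D1 and 2.56 for B2m. The counts of 6 members past 2-fold were then 3 higher and 1 lower, as with them, against 19.1% and 19.3% of all genes.

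All 4771 cells of the sorted basal library, of which 1758 met the basal rule, were set beside the basal cells of the total epithelium. H2-D1 was at 2382 CPM in the sorted library (2321 to 2443) and 2840 in the unsorted basal cells, a ratio of 1.19 (1.15 to 1.23), and H2-K1 at 732 (699 to 767) and 904, a ratio of 1.23 (1.16 to 1.31). B2m was at 196 CPM sorted and 467 unsorted, 2.38-fold (2.14 to 2.65), and Psmb8 at 32.5 and 96.2 CPM, 2.95-fold (2.29 to 3.84). Tap1 went the other way, at 85.2 CPM sorted and 22.6 unsorted, 3.76-fold higher in the sorted library (2.81 to 5.10). Cd74 was at 14.1 CPM sorted and 41.1 unsorted, 2.92-fold (1.98 to 4.41).

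Of 6 members compared, 3 were past 2-fold higher in unsorted basal cells (B2m, Cd74 and Psmb8), against 15.8% of 9269 genes, and 1 was lower (Tap1), against 28.6%. The median ratio of all genes was 0.73, so that a gene at the middle of the table read below 1. The ordinary proteasome subunits were also 2.58- to 3.55-fold higher in the unsorted cells, and Tap2, Tapbp, Canx and Erap1 were 2.09- to 3.47-fold higher in the sorted library. Sort, library, depth and the choice of cells cannot be told apart between these libraries. In a setting chosen after values were seen, only the 1758 sorted cells that met the basal rule were used. Unsorted to sorted ratios were then 1.29 for H2-K1, 1.22 for H2-D1, 2.25 for B2m, 3.39 for Psmb8, 2.46 for Cd74 and 0.22 for Tap1.

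Class II RNA was scarcer in the sorted library. The 4 genes had a UMI in 32 of 4771 cells (0.671%, 0.459 to 0.946), with 6 UMIs of H2-Aa, 9 of H2-Ab1, 0 of H2-Eb1, 35 of Cd74 and 1 of Ciita. Its cells were shallow, and thinned to 300 UMIs, which left out 882 sorted cells, the share was 0.472% against 1.38% in unsorted basal cells. Immune markers summed to 11.3 CPM there and 12.8 in the unsorted basal cells.

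In the genome (GENCODE M21, GRCm38) 7 of the 10 genes lie on chromosome 17 between bases 33996017 and 35267499, in 1271 kb: H2-K1, Tap1, Psmb8, H2-Ab1, H2-Aa, H2-Eb1 and H2-D1, in that order. Tap1 (34187553 to 34197225) ends 495 bases before Psmb8 (34197721 to 34201454), and H2-Ab1 begins 56234 bases after Psmb8. B2m lies on chromosome 2 (122147686 to 122153083), Ciita on chromosome 16 (10480059 to 10528418) and Cd74 on chromosome 18 (60803848 to 60812652).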

How the data were processed

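Cells of the total epithelium and sorted basal cells were captured on a droplet platform that reads the 3′ end of polyadenylated RNA. The values used were the UMI counts deposited by the authors, 1 matrix of genes by cells for each library, unnormalised; the submitters' processing notes name Cell Ranger 1.2.1 and mm10, and the study's methods name a later version. All cells deposited were used. The libraries held 9227651 UMIs (802 to 12967 per cell) and 2488704 UMIs (137 to 1946 per cell).

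Classes of cells followed fixed sums of UMIs. Genes with at least 30 UMIs over 2 classes were compared by the ratio of CPM, a count of 0 being set to 3, and 2-fold was the mark. Shares were thinned as the exact expectation at 800 UMIs, or 300 between libraries. No doublet caller was run. All 10 members are named, with, in each list, up to 3 genes of the largest ratio past 2-fold and others named beside them after their values were seen. Members and lists were chosen with earlier results of these data known. Listed genes numbered 168, of which 2 (H2-T10 and Trac) had no row. Python 3.11.15, numpy 2.4.6 and scipy 1.17.1 were used, and the scripts were tested on simulated data. Alternatives covered the total, averaging, thresholds, filters, cells left out and thinning. Some items of the listed genes are not reported here.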

Additional observations from a re-analysis of the deposited data

How the results depend on the processing

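No paired analysis was possible because each group is 1 library and no test was run. Over 13 alternatives, 3 of them chosen after seeing the data, 95 of 104 counts of members past the fold stayed within 1.5 times their value. Of 230 member ratios 0 moved by more than 1.5 times, but 27 fell outside the counting interval of the main ratio. Shares of cells with a UMI depended on thinning: for Psmb8 in ML cells the share was 48.8% with it and 87.5% without. At a 1.5-fold mark 5 members were higher in ML than basal cells. At 3-fold the members higher numbered 1 in ML over basal, 1 in ML over LP, 0 in LP over basal and 0 in unsorted over sorted basal cells. With genes of 3 or more UMIs admitted, 4 members were lower in ML than basal, 1 in ML than LP and 3 in LP than basal cells. Class thresholds of 20, 20 and 10 UMIs left 2 members higher in ML than LP cells. The ML to basal ratio of Psmb8 ranged from 7.42 to 10.5, and the Cd74 ratio from 0.0307 to 0.0463. The cause of each move was not tested, beyond the mark or filter itself. Depth limits the class II chains and Ciita, which had fewer than 30 UMIs.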

Other observations

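The 97 cells of the total epithelium that met no class rule held other sources of class I RNA. Their H2-D1 was at 4995 CPM (4654 to 5353), with B2m at 875 CPM (736 to 1033) and Psmb8 at 244 (173 to 333). Of them 34 had 3 or more UMIs of Col1a1, Col1a2 and Col3a1, and these held H2-D1 at 5232 CPM (4687 to 5822). Lyz2 had 72 UMIs in 3 of the 97 cells. Class II UMIs numbered 3, in 2 cells.

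The 26 cells that met both the basal and the ML rule had H2-D1 at 5963 CPM (5542 to 6408), between the basal and the ML level, and Psmb8 at 651 CPM (517 to 809). Their median was 4609 UMIs, above that of every class. One of them carried 6 class II UMIs, 4 of H2-Ab1 and 2 of Cd74.

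H2-Oa and H2-Ob, which regulate peptide exchange on class II, were rare and differed in place. H2-Oa had 22 UMIs in 21 LP cells, 5 in 4 ML cells and 1 in a basal cell. H2-Ob had 15 UMIs in 14 ML cells and 0 in basal and LP cells.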
